A study of Mus musculus with 4 samples.

Results

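Chaperonins are barrel-shaped complexes in which newly made proteins fold, and the 10 genes described here encode the chaperonins of the cytosol and of the mitochondrion. They were taken by symbol from a deposited table of 24537 genes, which held a row for all 10. The cytosolic complex, CCT or TRiC, is built from rings of 8 different subunits, encoded by Tcp1, Cct2, Cct3, Cct4, Cct5, Cct6a, Cct7 and Cct8. Its best known clients are actin and tubulin, together with several cell cycle and signalling proteins, and T cells raise its level when they are activated and grow. The mitochondrial chaperonin HSP60 (Hspd1) is the barrel that folds proteins imported into the matrix, and HSP10 (Hspe1) is the lid that closes it. Both are classical targets of the heat shock response and of the mitochondrial unfolded protein response.

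RNA was sequenced from CD8+ T cells recovered from B16-GP33 tumours at day 21, in 2 libraries labelled EV and 2 labelled ACSS2NLS. B16 cells are mouse melanoma cells, and GP33 is a viral epitope seen by CD8+ T cells. EV is the comparison group and is given in the labels by that abbreviation alone. ACSS2 is an enzyme that makes acetyl-CoA from acetate, and NLS usually stands for a nuclear localisation signal. The labels name neither the vector and its promoter nor the strain or age of the mice, and they do not say whether the 2 libraries of a group came from separate animals, so the spread between them may be technical. The comparison asks how the transcriptome of tumour CD8+ T cells differed when they carried ACSS2NLS.

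Acss2 was at 3.66 and 3.92 FPKM in the EV libraries, against 80.7 and 86.3 in the ACSS2NLS libraries, which matched the labels. Paired values are given here and below in the order of replicates 1 and 2. FPKM counts the fragments on a gene per kilobase of exon, scaled to the total tags of the library, so levels of different genes can be set side by side. Each library held 46000000 to 49300000 tags. The T cell markers were abundant in every library, with Cd8a at 145 to 186 FPKM. Transcripts of other cells were present as well. Melanoma markers (9 genes) summed to 7.62 and 46.2 FPKM in the EV libraries, against 13.8 and 180.4 in the ACSS2NLS libraries. Myeloid markers (12 genes) summed to 52.8 and 395 FPKM in EV, against 142 and 618 in ACSS2NLS. Lyz2 and the C1q genes made up most of that sum, while for Cd14, S100a8 and S100a9 of the same list the ACSS2NLS libraries stood below the EV libraries without overlap (S100a8 at 3.21 and 24.4 FPKM in EV, against 0.053 and 0.802 in ACSS2NLS). None of the 9 melanoma markers was at 0 in any library, and of the myeloid markers S100a9 was listed at 0 in ACSS2NLS replicate 1. In such bulk samples, a change in the number of cells of a type and a change in the RNA of each cell cannot be told apart.

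The genes for HSP60 and HSP10 lie head to head on mouse chromosome 1 (mm10, the build of GRCm38) and share the stretch between them. Hspd1 (NM_010477; chr1:55077834-55087932, minus strand) and Hspe1 (NM_008303; chr1:55088148-55091317, plus strand) are transcribed away from each other, and 215 bases separate their annotated starts. That stretch is printed because it precedes the starts of both genes. For both, the 2 ACSS2NLS libraries stood above the 2 EV libraries, as they did for 19.3% of all genes tested. Neither gene passed the test between groups given below, and a role of the stretch in these levels was not tested. The stretch is given on the plus strand, so that Hspd1 starts to its left and Hspe1 to its right (chr1:55087933-55088147, GRCm38.p6, from RefSeq). Capitals mark matches to a pair of heat shock elements, the inverted GAA units bound by heat shock factors.

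Hspd1-Hspe1 shared promoter: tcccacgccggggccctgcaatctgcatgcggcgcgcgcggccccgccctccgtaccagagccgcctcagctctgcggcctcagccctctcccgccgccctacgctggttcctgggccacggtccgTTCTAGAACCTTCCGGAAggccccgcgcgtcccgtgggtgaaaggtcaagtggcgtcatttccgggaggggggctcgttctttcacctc

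The search used GAANNTTC and TTCNNGAA on both strands, and matches were allowed to overlap. It found 3 overlapping matches, which form a run of 18 bases with 4 GAA or TTC units, from 89 to 72 bases before the Hspe1 start and from 127 to 144 bases before the Hspd1 start. At least 1 match was present in 15.1% of 32851 RefSeq promoter windows of the same design (250 bases before to 50 after a start), and 3 or more in 0.256%. RefSeq also lists a second Hspd1 start at position 55088243, which lies 95 bases inside Hspe1, so the 2 genes overlap there on opposite strands. Per the file headers tags were counted on the sense strand, which separates such genes only if the libraries kept strand, and the labels do not say whether they did.

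Promoter windows were found for 9 of the 10 genes, that of Cct4 not being listed. Among the CCT subunits, matches to the heat shock pair were single ones. Cct5 had a match that begins 34 bases before a start, Cct6a one that begins at base 25 after it, and Cct2 one only at its second listed start, 42 bases before it. Tcp1, Cct3, Cct7 and Cct8 had none in this window. GC boxes (GGGCGG, both strands) were found in some window of 9 of 9 genes, against 35.7% of all windows taken singly. Cct2, Cct5 and Hspd1 have a second listed start, and a match at either start counted for the gene. The window of the second Cct5 start had none, and the windows of Hspe1 and of the Hspd1 start beside it largely cover the same bases. CCAAT was found for Cct3, Cct6a, Cct7 and Tcp1 (37.4% of all windows). Hspd1 had a CCAAT and the E-box CACGTG (7.15% of all windows) only at its second listed start, and no other gene of the set had the E-box. A match describes the letters and is not evidence of binding.

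All 10 chaperonin genes were well expressed. Each passed the filter, a mean of 1 FPKM or more, which left 9810 genes to test. Each gene had between 770 and 13910 tags in a library (to the nearest 10), for a counting error of at most 3.61%. That figure covers counting only, since amplified reads are not independent molecules.

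**Figure D1:**
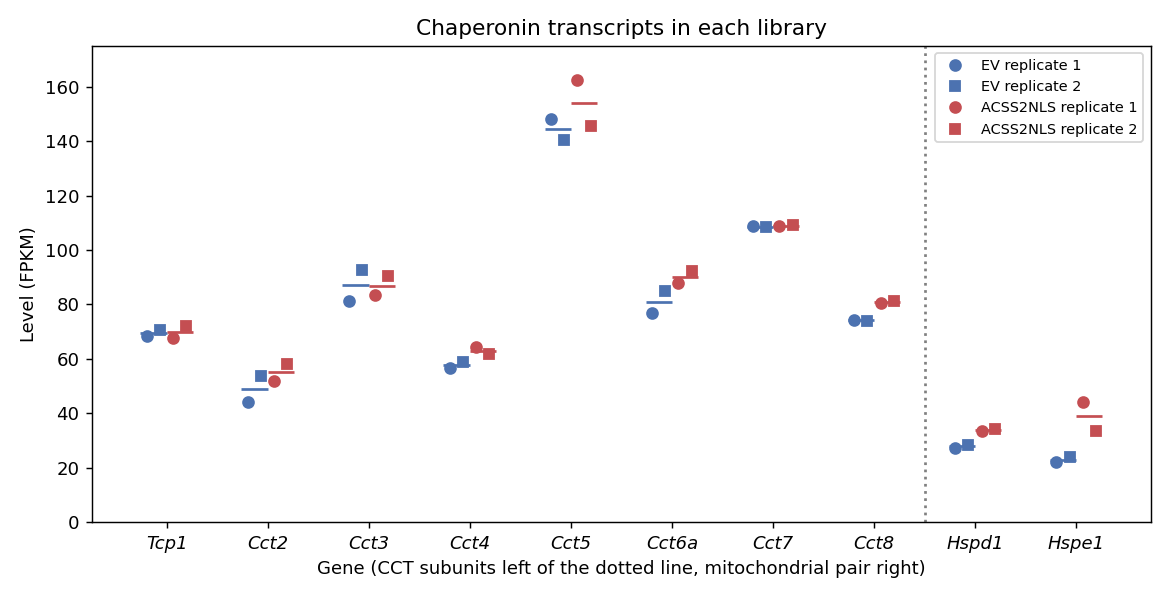
Level of each chaperonin gene in FPKM (vertical axis) in each of the 4 libraries. Circles are replicate 1, squares replicate 2, and short lines the group means. Cct5 is the highest in every library, and for Hspe1 both ACSS2NLS libraries (44.3 and 33.6 FPKM) lie above both EV libraries (22.0 and 23.8 FPKM).

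The CCT subunits differed among themselves far more than between the groups. The 8 subunits averaged 82.4 and 85.5 FPKM in the EV libraries, against 88.4 and 88.9 in the ACSS2NLS libraries. Within a library, the highest subunit was 2.5 to 3.35 times the lowest. Cct5 had the highest level of the 8 in every library, Cct7 the second, and Cct2 the lowest, below Cct4.

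Cct5 was at 148 and 141 FPKM in the EV libraries, against 162 and 146 in the ACSS2NLS libraries. Relative to the mean of the 8 subunits in the same library, that was 1.64 to 1.84. Cct7 was the steadiest over the 4 libraries, at 109 and 108 FPKM in the EV libraries, against 109 and 109 in the ACSS2NLS libraries. Its 2 groups overlapped. In the middle of the order, Cct3 and Cct6a exchanged places: Cct3 ranked 3 in both EV libraries and 4 in both ACSS2NLS libraries. Their levels overlapped, at 81.2 to 92.8 FPKM for Cct3 and 76.9 to 92.3 FPKM for Cct6a. Cct8, Tcp1 and Cct4 held ranks 5, 6 and 7 in every library. The levels of Tcp1 (67.6 to 72.1 FPKM) overlapped with neither Cct8 above it (74.1 to 81.4 FPKM) nor Cct4 below it (56.8 to 64.3 FPKM). Cct2, from 44.3 to 58.2 FPKM, overlapped with Cct4 over the libraries but stood below it within each.

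**Figure D2:**
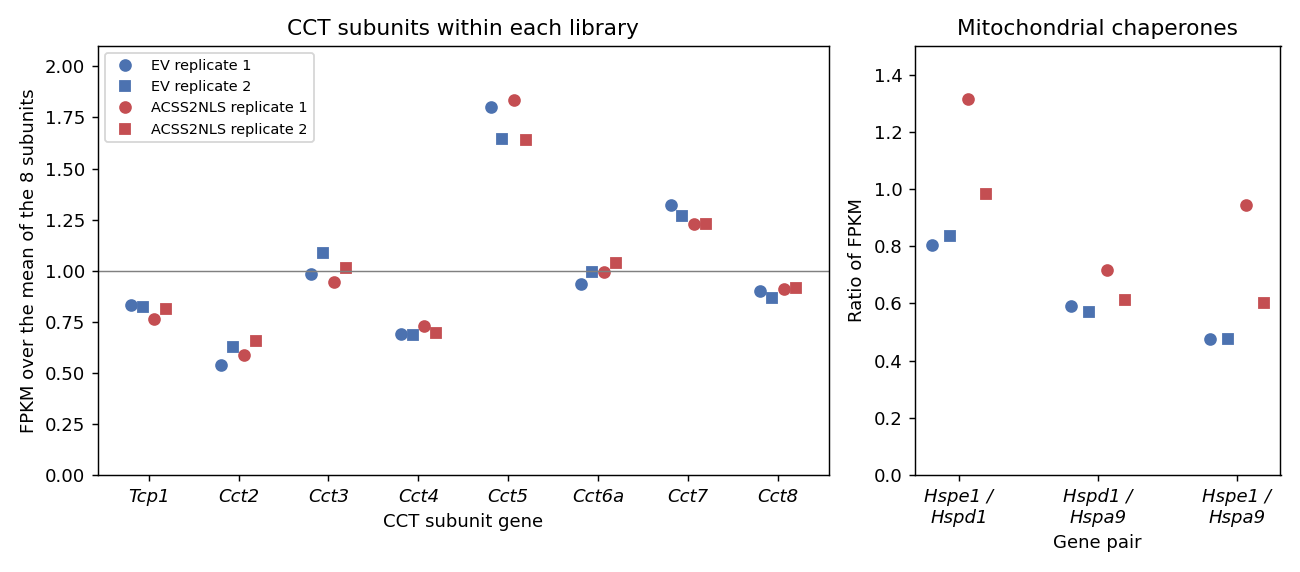
Left, FPKM of each CCT subunit over the mean of the 8 subunits in the same library. Right, ratios of FPKM between mitochondrial chaperone genes; each point is a library (circles replicate 1, squares replicate 2). Each subunit keeps a narrow range on the left (Cct5 1.64 to 1.84, Cct2 0.538 to 0.655), while Hspe1 over Hspd1 goes from 0.805 and 0.835 in EV to 1.31 and 0.983 in ACSS2NLS on the right.

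No CCT subunit passed the test between groups. Log2 changes are differences of mean log2(FPKM + 1), taken as ACSS2NLS minus EV and tested with limma-trend, with p-values adjusted over the 9810 genes and a threshold of 0.05. Of the 10 chaperonin genes, 0 passed in either direction, where 0.0204% of all genes tested passed upward and 0.0% downward. At an unadjusted p under 0.05, 2 of the 10 (Hspe1 and Hspd1) were higher, against 3.1% of all genes, and 0 were lower, against 2.87%.

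For 3 of the 8 CCT genes both ACSS2NLS libraries stood above both EV libraries, and with Hspd1 and Hspe1 that made 5 of 10. Over all genes tested the share was 19.3%. For 0 of the 10 did both stand below, against 18.1% of all genes. The 3 subunits were Cct4, Cct6a and Cct8, whose proteins are the delta, zeta and theta subunits of the ring.

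Cct8 (NM_009840; chr16:87483325-87495869) was at 74.2 and 74.1 FPKM in the EV libraries, against 80.7 and 81.4 in the ACSS2NLS libraries. The groups were 9.26% apart in mean FPKM and each was tight (log2 change 0.13 ± 0.11, SE, n = 2 per group; limma adjusted p = 0.85). Cct4 (NM_009837; chr11:22990593-23003336) was at 56.8 and 58.8 FPKM in the EV libraries, against 64.3 and 61.8 in the ACSS2NLS libraries. Its log2 change of 0.12 ± 0.11 had a limma adjusted p of 0.853. Cct6a (NM_009838; chr5:129787356-129846443) was at 76.9 and 84.8 FPKM in the EV libraries, against 87.7 and 92.3 in the ACSS2NLS libraries, with the EV replicates nearly as far apart as the groups (log2 change 0.15 ± 0.12). For Cct4, Cct6a and Cct8 the change was larger than the difference between the replicates of either group.

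The other 5 subunits overlapped between the groups. Cct2 (NM_007636; chr10:117050998-117063814) had the largest change of the 8, at 0.17 ± 0.14, but EV replicate 2 (53.7 FPKM) exceeded ACSS2NLS replicate 1 (52.0 FPKM), and EV replicate 1 (44.3 FPKM) stood apart below. Without EV replicate 1 its log2 change was 0.0345, below those of Cct4, Cct5, Cct6a and Cct8, and without EV replicate 2 it was 0.31. Cct5 (NM_007637; chr15:31590884-31601804) had 0.090 ± 0.13, which ranged from 0.0117 (without ACSS2NLS replicate 1) to 0.17 (without ACSS2NLS replicate 2) with a library left out. Tcp1, Cct3 and Cct7 were level, with log2 changes of 0.0087, 0.0008 and 0.0061. Each of these differences was smaller than the gap between the replicates of at least 1 group. Cct3 averaged 87.0 ± 8.15 FPKM in EV, against 86.9 ± 4.78 in ACSS2NLS (SD, n = 2), and all 3 turned slightly negative under some alternatives given at the end. The 95% intervals of the 8 log2 changes reached from -0.32 (Cct3) to 0.53 (Cct2), and each included 0, which does not show that the levels were equal. The median log2 change was 0.11 for the 8 subunits and 0.015 for all genes tested. For the 8 subunits, the median was 0.0595 without EV replicate 1 and 0.11 without EV replicate 2. It was 0.0757 when ACSS2NLS replicate 1 was omitted and 0.1049 when ACSS2NLS replicate 2 was omitted.

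Cct2 and Cct3 differed more between replicates than the other subunits did in EV. Replicate 2 was above replicate 1 in each group for Tcp1, Cct2, Cct3 and Cct6a. For Cct5 it was below in each group (148 and 141 FPKM in EV, 162 and 146 in ACSS2NLS). For Cct4, Cct7 and Cct8 the direction differed between the groups. The summed melanoma and myeloid markers were higher in replicate 2 of each group. The part of other cells in these levels was not tested.

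**Figure D3:**
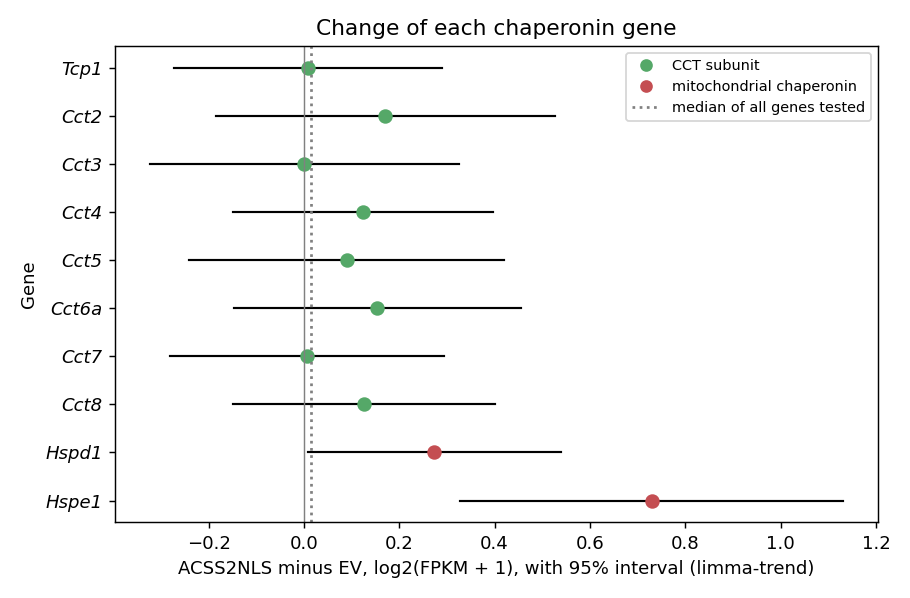
Log2 change of each chaperonin gene (ACSS2NLS minus EV on log2(FPKM + 1), horizontal axis) with its 95% interval from limma-trend, not adjusted over genes; the dotted line is the median of all genes tested, 0.015. The intervals of the 8 CCT subunits span 0, and those of Hspd1 (0.0087 to 0.54) and Hspe1 (0.33 to 1.13) lie above it.

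The mitochondrial pair had the largest log2 changes of the 10, although the difference between the pair and the CCT subunits was not tested. Hspe1, the HSP10 lid, was at 22.0 and 23.8 FPKM in the EV libraries, against 44.3 and 33.6 in the ACSS2NLS libraries. Both ACSS2NLS libraries were well above both EV libraries, and they differed from each other more than the EV libraries did. The mean was 1.70-fold higher (22.9 ± 1.32 and 38.9 ± 7.55 FPKM, SD, n = 2), and the log2 change was 0.73 ± 0.16. Ordered from the largest rise in mean to the largest fall, it was number 130 of 9810 genes, and it was number 37 by p among those with a higher mean. It did not pass over all genes (limma unadjusted p = 0.00494, adjusted p = 0.775). Leaving out each library in turn gave log2 changes of 0.54 to 0.92. The summed markers of stromal and endothelial cells, 6 genes, were also lower in EV, at 8.58 and 14.2 FPKM against 17.3 and 17.9 FPKM in ACSS2NLS. Pecam1 made up most of each sum, at 8.50 and 9.28 FPKM in EV against 9.22 and 10.2 in ACSS2NLS, with overlapping groups. Dcn overlapped as well, while Col1a1 and Col3a1 were higher in ACSS2NLS without overlap. Col3a1 and Dcn were listed at 0 in EV replicate 1 and Cdh5 in ACSS2NLS replicate 2. The summed B cell markers (4 genes) were lower in EV too, at 1.58 and 2.38 FPKM against 2.97 and 3.11 in ACSS2NLS. So were the summed NK cell markers (3 genes), at 6.7 and 8.7 FPKM against 11.2 and 10.4. In the NK list Eomes was higher in ACSS2NLS, while Ncr1 and Klrb1c were lower. The part of other cells in the level of Hspe1 was not tested.

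Hspd1, the HSP60 barrel, had a smaller change with a tighter spread. It was at 27.3 and 28.5 FPKM in the EV libraries, against 33.7 and 34.2 in the ACSS2NLS libraries. The groups did not overlap and the ACSS2NLS libraries were nearly level. The mean was 21.6% higher, with a log2 change of 0.27 ± 0.11 (limma unadjusted p = 0.045, adjusted p = 0.81). Leaving out each library in turn gave 0.24 to 0.31.

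Although they share a promoter stretch, the 2 genes did not keep a constant ratio. The ratio of Hspe1 to Hspd1 was 0.805 and 0.835 in EV, against 1.31 and 0.983 in ACSS2NLS. The HSP10 transcript was thus below that of HSP60 in both EV libraries, above it in ACSS2NLS replicate 1 and about level with it in ACSS2NLS replicate 2. Against Hspa9, which encodes mortalin, the mitochondrial HSP70 that pulls proteins into the matrix, Hspe1 stood at a ratio of 0.475 and 0.476 in EV, against 0.944 and 0.601 in ACSS2NLS. The ratio of Hspd1 to Hspa9 was 0.591 and 0.571 in EV, against 0.718 and 0.611 in ACSS2NLS. Hspa9 itself ranged from 46.2 to 55.9 FPKM, with overlapping groups (log2 change 0.090 ± 0.13).

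Near-identical copies limit the certainty of these 2 genes more than of the others. Among GENCODE transcripts, 5 processed pseudogenes matched Hspd1, and 4 processed pseudogenes and 1 coding gene model matched Hspe1, over at least 200 bases at 90% identity or more, with up to 99.0% identity. None of these has a row in the FPKM table, and how reads with several possible origins were handled was not stated in the sources used. Cct3 and Cct7 matched 1 pseudogene each, and Tcp1, Cct6a and Cct7 matched genes that overlap or adjoin them. Tcp1 also matched Acat2, which was not found to overlap it. Cct2, Cct4, Cct5 and Cct8 matched none. Tcp1 (NM_013686; chr17:12916329-12925067) overlaps Acat3 on the opposite strand by 1109 bases, Cct7 (NM_007638; chr6:85451505-85468477) overlaps Pradc1 by 466 and Cct8 overlaps Usp16 by 189. Cct3 (NM_009836) lies at chr3:88297135-88321766.

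The genes with the most similar profiles over the 4 libraries were listed for Hspe1, for Hspd1 and for the CCT mean. Likeness was the Euclidean distance between log2(FPKM + 1) values centred on each gene's mean, over genes averaging 5 FPKM or more; with 4 libraries many genes lie close by. The nearest of 6070 genes to Hspe1 were Sh2d1a (distance 0.041), Crabp2 (0.059), Tcf7 (0.13), Hist1h2ae (0.16) and Hsp90aa1 (0.16). Sh2d1a encodes the adaptor SAP, Tcf7 the transcription factor TCF1, and Hsp90aa1 the stress-inducible HSP90. Sh2d1a followed Hspe1 closely, at 23.1, 24.6, 45.0 and 34.0 FPKM in EV replicates 1 and 2 and ACSS2NLS replicates 1 and 2. Hspd1 ranked 396 in that order, and Hspe1 ranked 4903 of 6070 in the order by likeness to Hspd1. Both ranks rest on the same distance, 0.54. That distance depends on the size of a change as well as its direction, and both genes were lower in EV than in ACSS2NLS. The nearest to Hspd1 were Nsun5, Prdx3, Fam96b, Dscr3 and Dcaf17 (0.028 to 0.034), Prdx3 being a mitochondrial peroxidase; Cct6a ranked 216, Cct8 306 and Cct4 344 of 6070. For the mean of the 8 CCT subunits the nearest were Snrnp70, Gtf2f2, Morc3, Csnk1g3 and Dmtf1 (0.013 to 0.018), all nearly flat genes. Against that mean, Cct8 ranked 100, Cct4 122, Cct6a 183, Tcp1 206, Cct7 260, Cct3 550, Cct5 1071 and Cct2 1351 of 6071. Each subunit is part of that mean, which shortens its distance in advance. These ranks therefore cannot show that the subunits moved together.

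**Figure D4:**
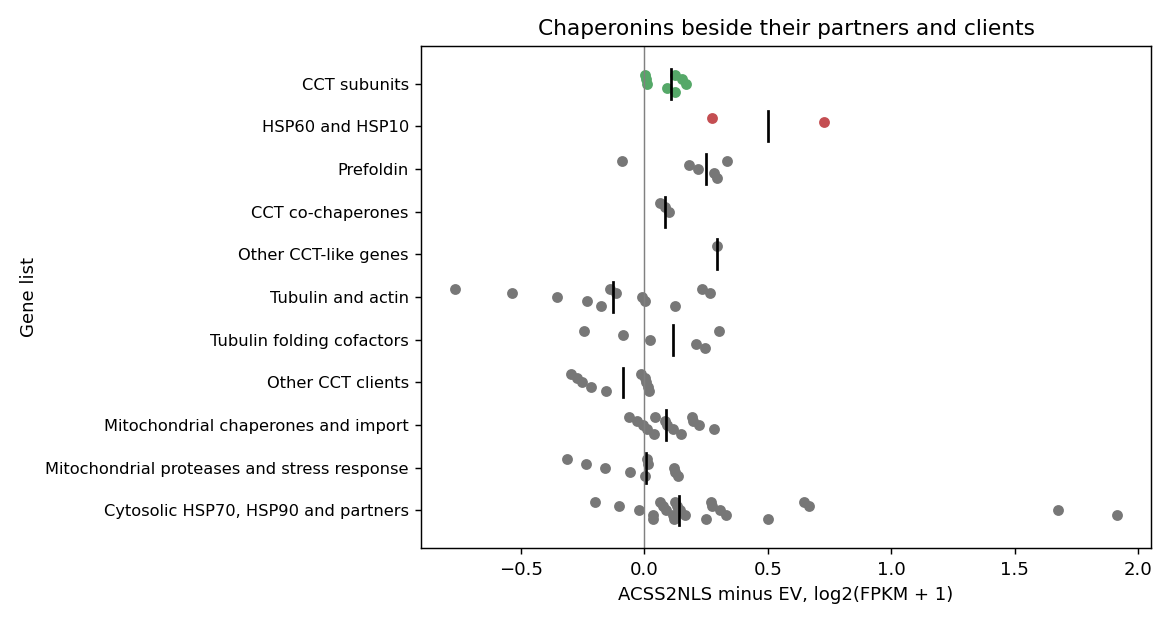
Log2 change (ACSS2NLS minus EV on log2(FPKM + 1), horizontal axis) of each tested gene in the chaperonin groups and in lists of their partners and clients; each dot is a gene, spread vertically for legibility, and each bar the median of its list. The median is 0.25 for prefoldin and -0.13 for tubulin and actin; no gene shown passed over all genes tested.

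The genes that work with the chaperonins are given by list. Over all genes tested, the mean was higher in ACSS2NLS for 53.2% and lower for 46.8%. Groups did not overlap upward for 19.3% and downward for 18.1%. At a limma unadjusted p under 0.05, 3.1% were higher and 2.87% lower. Of 6 tubulin folding cofactors, 3 did not overlap upward and 1 downward. For 10 other clients these counts were 0 and 3, and for 14 mitochondrial folding and import genes 2 and 1. For 10 mitochondrial proteases and stress regulators they were 0 and 3. In none of the lists did a gene pass over all genes tested in either direction.

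Prefoldin hands unfolded actin and tubulin to CCT, and 5 of its 6 subunit genes had a higher mean (median log2 change 0.25; 3 with groups that did not overlap, 0 at an unadjusted p under 0.05). The 6 genes summed to 166 and 161 FPKM in the EV libraries, against 217 and 165 in the ACSS2NLS libraries. ACSS2NLS replicate 1 thus stood apart, while ACSS2NLS replicate 2 lay within the EV values. Pfdn2 (log2 change 0.34 ± 0.17), Vbp1 (0.29 ± 0.16) and Pfdn4 (0.28 ± 0.14) had the smallest p of the list. The phosducin-like co-chaperones of CCT were near level: Pdcl, Pdcl3 and Txndc9 had log2 changes of 0.064, 0.10 and 0.083, and Pdcl2 was listed at 0 in every library. Of the genes related to CCT, Mkks was tested (0.30 ± 0.16), and Cct6b, the testis form of the zeta subunit, did not exceed 0.231 FPKM.

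More of the listed CCT client genes had a lower than a higher mean, where 46.8% of all genes tested had a lower one. Several of them were near level, and none passed over all genes tested. Of 12 tested tubulin and actin genes, 4 had a higher and 8 a lower mean (median -0.13), with 1 and 5 not overlapping in those directions and 0 and 2 at an unadjusted p under 0.05. Tubb6, a beta-tubulin, was at 42.2 and 42.4 FPKM in the EV libraries, against 20.1 and 29.6 in the ACSS2NLS libraries (log2 change -0.77 ± 0.19). Tuba1a had -0.36 ± 0.13 and Tuba8 -0.53 ± 0.23. Tuba8 was close to the filter, at 1.16 and 2.05 FPKM in the EV libraries, against 0.841 and 0.708 in the ACSS2NLS libraries. Alpha-tubulin genes are close copies, so reads may be split among them. Actb, which encodes beta-actin, was at 869 and 1205 FPKM in the EV libraries, against 1026 and 1414 in the ACSS2NLS libraries, higher in replicate 2 of both groups. The cofactors that finish tubulin folding had 4 higher and 2 lower means of 6 (median 0.12), with Arl2 at 0.30 ± 0.12, Tbca at 0.24 ± 0.13 and Tbcd at -0.24 ± 0.13. Of 10 other clients 4 had a higher and 6 a lower mean (median -0.085), with 0 at a limma unadjusted p under 0.05 in either direction. Among them Fzr1, the CDH1 activator of the anaphase-promoting complex, had -0.27 ± 0.13, and the G protein beta genes Gnb1 and Gnb2 had -0.25 ± 0.12 and -0.22 ± 0.11. The summed level of 14 cell cycle genes was 748 and 674 FPKM in the EV libraries, against 622 and 635 in the ACSS2NLS libraries.

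Other mitochondrial folding and import genes stayed closer to level than Hspe1. The mean was higher for 11 of 14 tested and lower for 3 (median log2 change 0.086), and 0 had an unadjusted p under 0.05. Grpel2, a nucleotide exchange factor for mortalin, had 0.28 ± 0.16, its co-chaperone Dnaja3 0.20 ± 0.14 and the import receptor Tomm70a 0.19 ± 0.17. Mitochondrial proteases and stress regulators had 6 higher and 4 lower means of 10 (median 0.0060). The inner membrane proteases Spg7 and Afg3l2 had -0.31 ± 0.15 and -0.24 ± 0.13, and the stress transcription factor Atf4 -0.16 ± 0.12. Atf5, a regulator of the mitochondrial unfolded protein response, was at 1.92 and 1.81 FPKM in the EV libraries, against 1.57 and 2.20 in the ACSS2NLS libraries, and its groups overlapped.

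Among cytosolic HSP70 and HSP90 genes and their partners, 21 of 24 tested had a higher mean (median 0.14), and 11 did not overlap upward, 1 downward. At an unadjusted p under 0.05, 3 were higher and 0 lower. Hspa8, the constitutive HSP70, was at 27.4 and 23.7 FPKM in the EV libraries, against 50.6 and 33.2 in the ACSS2NLS libraries (0.67 ± 0.22), and Hsp90aa1 at 17.6 and 16.5 FPKM and 31.6 and 23.4 FPKM (0.65 ± 0.17). As for Hspe1, but not for Hspd1, ACSS2NLS replicate 1 was the highest library for both. Bag2, a regulator of HSP70, was higher in both ACSS2NLS libraries (0.50 ± 0.15). The inducible Hspa1a was high in 1 library. It was at 3.47 and 1.54 FPKM in the EV libraries, against 24.1 and 3.60 in the ACSS2NLS libraries. Hspa1b, Dnaja1, Dnajb1 and Bag3 overlapped between the groups. Dnajb1 was at 26.2 and 14.5 FPKM in EV, against 27.3 and 16.4 in ACSS2NLS. Hsf1, the heat shock factor, was at 15.3 and 15.2 FPKM in the EV libraries, against 16.9 and 14.5 in the ACSS2NLS libraries.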

How the data were processed

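The deposited table gives FPKM to 3 decimals. Per the file headers, HOMER counted tags on exons of RefSeq genes in mm10 on the sense strand and scaled them to FPKM; per the submitters' processing notes, STAR 2.5.3a was used. The exon length of each gene is the deposited value. Columns named Acss2WT and Acss2OE were read as EV and ACSS2NLS. The header names 8 tag directories; the table has 4 library columns, all used. A count test was not used, because FPKM are scaled values. Total tags were read from the steps of low FPKM (100% of values whole within 0.1 tag), to the nearest 100000.

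From these values log2(FPKM + 1) was computed for the 9810 genes averaging 1 FPKM or more and fitted with limma-trend (limma 3.58.1, R 4.3.3), two-sided, Benjamini-Hochberg adjusted, threshold 0.05. The fit was tested on simulated data. No set test was run.

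Members and lists were chosen with earlier results of these data known. Named were the members, Acss2, up to 3 genes per partner list with the smallest unadjusted p, and the 5 nearest profiles. Others (Hspa9, Hspa1a, Hspa1b, Dnaja1, Dnajb1, Bag3, Actb, Atf5, Hsf1, Cct6b, Pdcl2) were chosen after their values were seen. Alternatives were pseudocounts of 0.1 and 0.5, no filter, a mean of at least 5 FPKM, 2 scalings, no trend, a replicate block and leaving out each library.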

Additional observations from a re-analysis of the deposited data

How the results depend on the processing

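Of 120 refits of the 10 genes (12 alternatives each), 113 kept the direction and the side of the threshold, 6 turned the sign and 1 passed. Tcp1 turned to -0.0126 without EV replicate 1 and -0.0366 without ACSS2NLS replicate 2, and Cct3 to -0.0938 and -0.0547 under the same omissions. With median-of-ratios scaling Cct3 was at -0.0068 and Cct7 at -0.0014. With each library left out in turn, Tcp1 ranged from -0.0366 to 0.054 and Cct3 from -0.0938 to 0.0954. The cause was not tested.

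With the replicate block, 1 chaperonin gene passed upward (Hspe1, log2 change 0.73, limma adjusted p = 0.00184; 0.547 to 0.9995 under the other alternatives), and over all genes 229 passed upward and 172 downward. A single residual degree of freedom remains there. The differences between replicates 1 and 2 of the groups correlated over 9810 genes (r = 0.583), but the labels do not say that a number marks a shared animal or day, so the numbers were not taken as pairs. With no filter on low values 1 gene passed upward. Leaving out each library gave 2 to 2 genes upward, 0 to 9 downward, and 0 to 0 chaperonin genes. The median of the 8 CCT subunits was 0.15 under quantile normalization and 0.0595 to 0.11 with a library left out. No scaling moved the median of all genes by over 0.1. The counting error of the 10 genes was at most 3.61%, well under the spread between the ACSS2NLS replicates of Hspe1.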

Other observations

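Several CCT genes also start beside a gene on the opposite strand; these neighbours were looked up after the values were seen, and no comparison with them was tested. Mrpl18, a mitochondrial ribosomal protein gene that starts 237 bases from Tcp1, was at 72.3 and 55.7 FPKM in the EV libraries, against 78.1 and 57.4 in the ACSS2NLS libraries, lower in replicate 2 of each group, whereas Tcp1 stayed between 67.6 and 72.1 FPKM. Psph, a serine synthesis enzyme gene that starts 102 bases from Cct6a, was at 20.8 and 17.7 FPKM in the EV libraries, against 19.3 and 17.8 in the ACSS2NLS libraries, with overlapping groups where those of Cct6a did not overlap. Fam173b, 311 bases from Cct5, was at 5.44 and 4.90 FPKM in the EV libraries, against 5.30 and 4.61 in the ACSS2NLS libraries. Usp16, which overlaps Cct8 by 189 bases on the opposite strand, was not listed as starting beside it. Usp16 was at 8.98 and 9.08 FPKM in the EV libraries. Both ACSS2NLS libraries stood above these values (10.3 FPKM in replicate 1), so the groups of Usp16, like those of Cct8, did not overlap. Tsacc, 296 bases from Cct3, and B130034C11Rik, 203 bases from Cct8, did not exceed 1.25 and 0.217 FPKM.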
